A study of Homo sapiens with 12 samples.

Results

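Ribosome biogenesis and RNA polymerase I were followed through 55 named genes in T84, a cell line from a human colon carcinoma whose cells form a tight, polarised epithelial layer in culture. They were chosen as a list of names, with no measured value in the rule, and were looked up in the read count table by their Ensembl identifiers, of which the table holds 48162. An identifier was matched for 54 of the 55 genes, and all 54 passed the filter on low counts. BOP1, a partner of PES1 and WDR12, was not matched, so no value is given for it. The study had confluent cells in 6-well plates, replaced their medium by Hanks buffered saline of pH 6.0 or pH 7.4, and collected RNA after 6 h or 3 h. The 4 groups of 3 libraries were therefore pH 6.0 at 6 h, pH 7.4 at 6 h, pH 6.0 at 3 h and pH 7.4 at 3 h. Every group was in saline, no library of cells in medium was analysed here, and T84 is 1 tumour line. Nothing in the labels ties the libraries of a group to separate cultures, so p-values rest on the spread between libraries, and this spread may be technical.

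Ribosomes are built in the nucleolus, where RNA polymerase I transcribes the precursor of most of the ribosomal RNA and RNA polymerase III, outside it, supplies the remaining small one. Small nucleolar ribonucleoproteins (snoRNPs) direct the methylation and pseudouridylation of the precursor, and large sets of assembly factors fold and cleave it into the small and the large subunit. The pathway takes up a large part of the energy budget of a growing cell, and MYC is a well-known transcriptional activator of many of its genes.

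The genes of this pathway did not move as a block in acid saline. After 6 h, 11 of the 54 genes were higher and 15 lower at pH 6.0 than at pH 7.4. The catalytic subunits of RNA polymerase I (POLR1B, and POLR1A, whose call was lost once length and GC content were corrected for) and several assembly factors (WDR43, UTP15, NOP2, RRS1) were among the lower genes, while snoRNP proteins (FBL, NHP2, RRP9), the abundant nucleolar chaperone gene NPM1 and the polymerase III subunit POLR3G were among the higher ones. After 3 h, 10 genes were lower and 1 higher. A gene counts as higher or lower where edgeR's quasi-likelihood test, adjusted by the Benjamini-Hochberg method over all 15630 genes tested, gave a p under 0.05. Levels are CPM, the count as a share of the TMM-scaled library total, and the value after ± beside a log2 fold change is its standard error (SE), and elsewhere an SD. These are shares of the RNA of whole wells, so fewer cells expressing a gene and less of its RNA per cell cannot be told apart.

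Libraries held between 13912532 and 24331032 counts. The 54 genes together took 0.529% ± 0.0245 of the counts at pH 6.0 after 6 h, against 0.521% ± 0.0240 at pH 7.4. After 3 h the share was 0.550% ± 0.0148 at pH 6.0 and 0.589% ± 0.0408 at pH 7.4 (SD, n = 3 each). Markers of epithelial cells summed to between 8928 and 11823 CPM in a library, with the highest sums, 10884 to 11823 CPM, at pH 6.0 after 6 h, against 8928 to 9177 CPM at pH 7.4. All 10 of these markers had counts. They did not move together at 6 h, since KRT8 (4521 CPM at pH 6.0 and 2919 CPM at pH 7.4), EPCAM, KRT18 and VIL1 were higher at pH 6.0, CDH1 and KRT20 lower and the other 4 not past the threshold, and the part of this difference in the values below was not tested. The 11 fibroblast markers summed to at most 11.9 CPM in 11 libraries and to 33.6 CPM in pH 7.4 library 2 at 6 h. The 10 leukocyte markers summed to at most 12.4 CPM, with 1 of them, the B cell gene MS4A1, without a count in any library, and the 6 endothelial markers matched summed to at most 13.7 CPM.

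Per length of transcript, NPM1 was the most abundant of the 54 genes, with a mean over libraries of 421 CPM per kilobase, ahead of NCL with 273 and FBL with 127. DDX21, DKC1, NOP58 and NOP56 followed, between 68.2 and 51.4 CPM per kilobase. At the other end POLR3G and PPAN were counted 19 to 50 and 19 to 53 times in a library, which limits the precision of their values. Exons of PPAN overlap those of P2RY11 and PPAN-P2RY11 on the same strand. Whether reads shared with these genes were left out of its count was not tested, so its low count may understate its level. The first 7 places were thus held by abundant nucleolar proteins and snoRNP proteins, while the H/ACA core protein GAR1, at 20.3 CPM per kilobase, stood lower, and POLR3G was last.

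After 6 h the 26 genes past the threshold were 48.1% of the 54, against 47.0% of all genes tested. The median log2 fold change of the 54 was -0.01, against -0.00 over all genes tested. By direction, 21.9% of all genes were higher and 25.1% lower. In this comparison the count of changed genes is thus near the background. The calls are given by role below, and whether role and direction go together was not tested. For 31 of the 54 genes the 3 libraries at pH 6.0 did not overlap with the 3 at pH 7.4. This was not counted over all genes, so it has no background here. Without pH 7.4 library 2 at 6 h, the library with the fibroblast counts, 10 genes were higher and 16 lower. Over all 15996 genes of that fit 3183 were higher and 3589 lower.

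**Figure D1:**
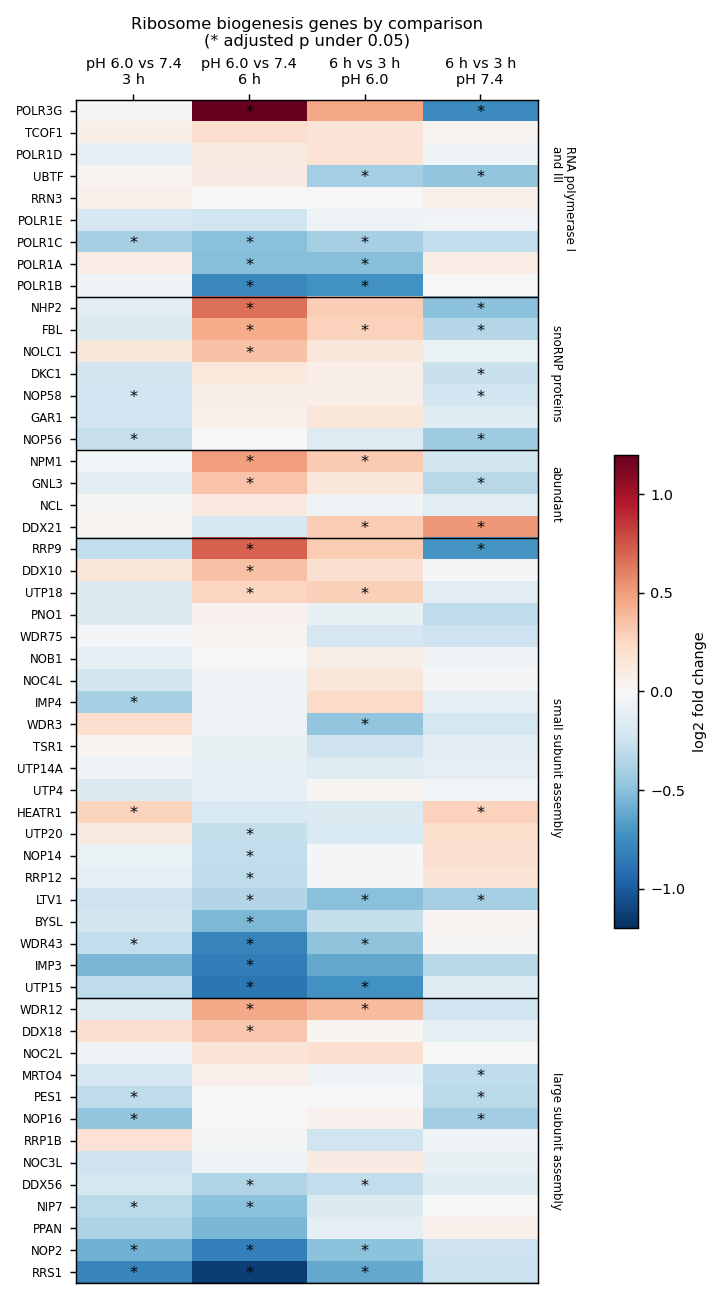
Log2 fold change of the 54 genes, grouped by role, as colour, for pH 6.0 against pH 7.4 at each time and for 6 h against 3 h at each pH. An asterisk marks an adjusted p under 0.05, and RRS1 at -1.13 and POLR3G at 1.197 are the ends of the range for pH at 6 h.

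Among the 9 genes of RNA polymerase I and III, 3 fell and 1 rose at 6 h. POLR1B, the second largest catalytic subunit of RNA polymerase I, had 35.9, 36.3 and 35.2 CPM at pH 6.0, against 61.2, 58.8 and 64.2 CPM at pH 7.4. The pH 6.0 libraries lay close together and far below all pH 7.4 libraries, a 1.71-fold lower level (log2 fold change -0.78 ± 0.09, adjusted p = 1.49e-07). POLR1A, the largest catalytic subunit, had 96.1, 96.8 and 85.4 CPM at pH 6.0 and 132, 118 and 146 CPM at pH 7.4 (-0.51 ± 0.09, adjusted p = 0.000137). These groups did not overlap either, but with a correction for gene length (12749 bases for POLR1A) and GC content the log2 fold change was -0.16 and its adjusted p 0.147. POLR1C, a subunit that RNA polymerases I and III share, had 16.5, 15.1 and 15.1 CPM at pH 6.0 and 24.1, 22.0 and 20.1 CPM at pH 7.4 (-0.50 ± 0.12, adjusted p = 0.00131).

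The exception was POLR3G, which encodes a subunit of RNA polymerase III whose place in the enzyme POLR3GL can take. It had 3.33, 2.28 and 2.66 CPM at pH 6.0 and 1.22, 1.02 and 1.34 CPM at pH 7.4, without overlap (1.197 ± 0.27, adjusted p = 0.000776). POLR1E, another polymerase I subunit, had 17.7, 18.6 and 16.9 CPM at pH 6.0 and 21.6, 19.8 and 21.4 CPM at pH 7.4 and did not pass the test (-0.24 ± 0.12, adjusted p = 0.103). Of the factors that bring the enzyme to the ribosomal DNA, those in this list (UBTF, RRN3 and TCOF1) gave no call for pH at 6 h. UBTF, which binds the ribosomal DNA promoter, had a log2 fold change of 0.10 ± 0.08, RRN3, which makes the polymerase competent to initiate, 0.00 ± 0.08, and TCOF1 (treacle) 0.20 ± 0.10.

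**Figure D2:**
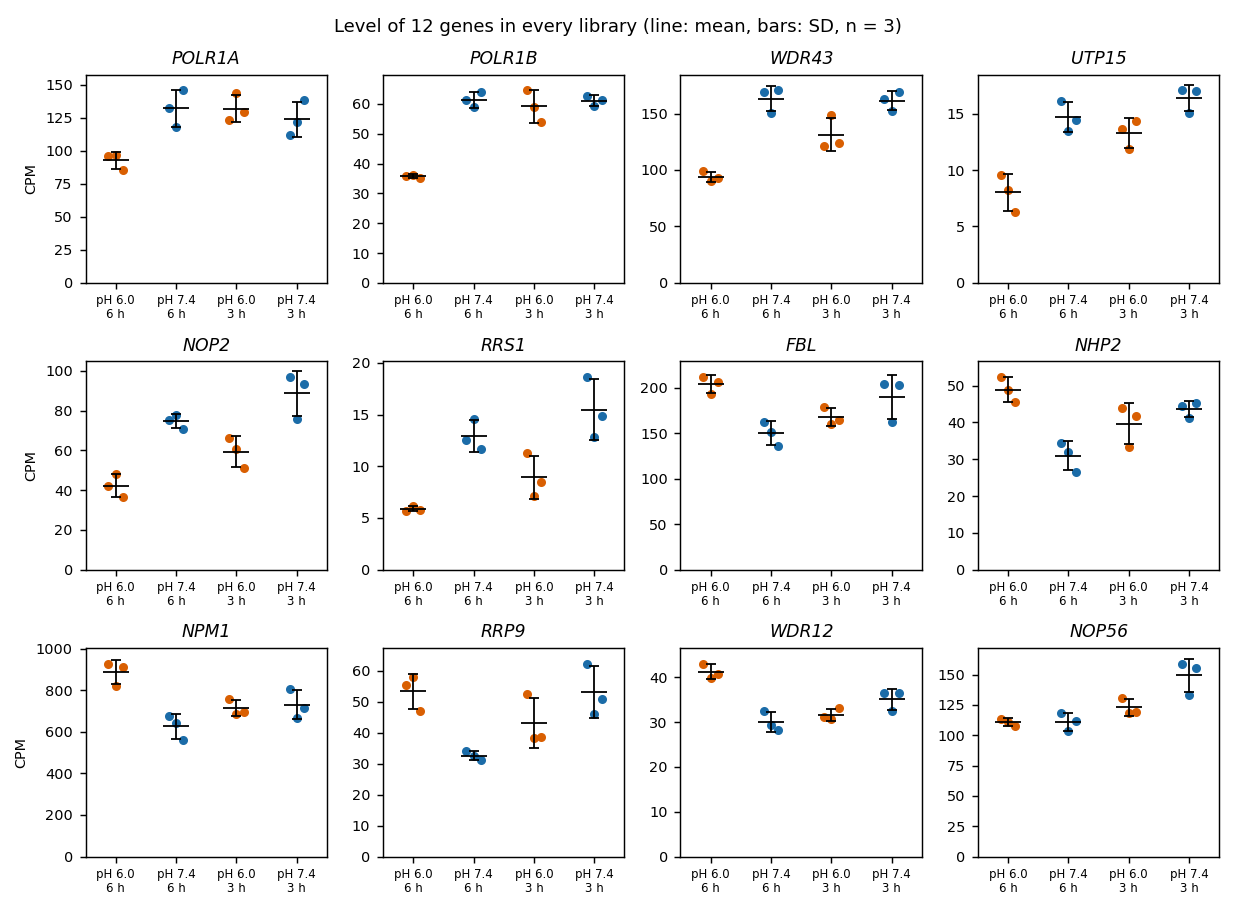
TMM-scaled CPM of 12 genes in every library, on a linear axis from 0, with pH 6.0 left of pH 7.4 at each time. Points are libraries, long lines group means and bars SDs (n = 3 each), and the POLR1B libraries at pH 6.0 after 6 h, at 35.2 to 36.3 CPM, lie below the other 9.

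The 7 snoRNP protein genes gave 3 rises and no fall at 6 h, and 6 of the 7 had a positive log2 fold change. FBL encodes fibrillarin, the methyltransferase of the box C/D snoRNPs, and had 212, 193 and 206 CPM at pH 6.0, against 162, 151 and 136 CPM at pH 7.4. All 3 pH 6.0 libraries were higher than all pH 7.4 libraries (0.44 ± 0.09, adjusted p = 0.000365). NHP2, a core protein of the box H/ACA snoRNPs that guide pseudouridylation, had 52.4, 48.9 and 45.4 CPM at pH 6.0 and 34.4, 32.1 and 26.5 CPM at pH 7.4 (0.66 ± 0.11, adjusted p = 4.03e-05). NOLC1, a nucleolar phosphoprotein that associates with snoRNPs, had 172, 167 and 146 CPM at pH 6.0 and 131, 124 and 125 CPM at pH 7.4 (0.35 ± 0.08, adjusted p = 0.00126). The enzyme of the same H/ACA particle, DKC1 (dyskerin), overlapped between the groups, with 175, 167 and 155 CPM at pH 6.0 and 161, 154 and 139 CPM at pH 7.4 (0.13 ± 0.08, adjusted p = 0.207). The C/D core proteins NOP56 and NOP58 were also short of the threshold at 6 h, with log2 fold changes of -0.00 ± 0.08 and 0.08 ± 0.07.

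Of the 4 abundant nucleolar proteins, 2 rose and none fell. NPM1, nucleophosmin, a histone and ribosome chaperone, had 928, 819 and 914 CPM at pH 6.0, against 678, 644 and 559 CPM at pH 7.4 (0.50 ± 0.09, adjusted p = 0.000103). GNL3, nucleostemin, a nucleolar GTP-binding protein, had 121, 107 and 109 CPM at pH 6.0 and 90.9, 85.3 and 89.4 CPM at pH 7.4 (0.34 ± 0.09, adjusted p = 0.00216). For both, the groups were apart. NCL, nucleolin, which binds the precursor RNA, overlapped between the groups, with 1190.0, 1063 and 1076 CPM at pH 6.0 and 1119, 939 and 1021 CPM at pH 7.4 (0.11 ± 0.10, adjusted p = 0.364). DDX21, an RNA helicase of the nucleolus, had 379, 344 and 306 CPM at pH 6.0 and 408, 360.3 and 409 CPM at pH 7.4, again with overlap (-0.19 ± 0.08, adjusted p = 0.0612).

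The 21 genes of small subunit assembly had 8 falls and 3 rises. The UTP-A complex joins the precursor RNA first and is also needed for its transcription. Of its subunits listed here, WDR43 and UTP15 fell, while HEATR1, WDR75 and UTP4 were not past the threshold. WDR43 had 99.1, 90.0 and 92.5 CPM at pH 6.0, against 169, 150.1 and 171 CPM at pH 7.4, a 1.74-fold lower level (-0.80 ± 0.09, adjusted p = 1.29e-07). UTP15 had 9.58, 8.24 and 6.28 CPM at pH 6.0 and 16.2, 13.5 and 14.5 CPM at pH 7.4 (-0.87 ± 0.14, adjusted p = 3.25e-05). HEATR1, of the same complex, was short of the threshold with 67.8, 66.0 and 65.6 CPM at pH 6.0 and 79.2, 69.5 and 77.0 CPM at pH 7.4 (-0.18 ± 0.09, adjusted p = 0.102). BYSL, bystin, which acts late on the small subunit, had 24.5, 25.4 and 19.99 CPM at pH 6.0 and 35.6, 36.3 and 29.8 CPM at pH 7.4 (-0.54 ± 0.11, adjusted p = 0.000288). The other lower genes were IMP3 (-0.83 ± 0.21), LTV1 (-0.35 ± 0.11), RRP12 (-0.31 ± 0.11), NOP14 (-0.30 ± 0.11) and UTP20 (-0.28 ± 0.09).

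The rises on the small subunit side included a protein of the U3 snoRNP, the particle that directs the first cleavages of the precursor. RRP9, which belongs to that particle alone, had 55.2, 57.8 and 46.9 CPM at pH 6.0, against 34.1, 32.4 and 31.2 CPM at pH 7.4, a 1.64-fold higher level without overlap (0.71 ± 0.13, adjusted p = 0.000104). DDX10, a putative RNA helicase, had 51.6, 49.0 and 42.4 CPM at pH 6.0 and 38.9, 36.4 and 37.0 CPM at pH 7.4 (0.35 ± 0.10, adjusted p = 0.0049). UTP18, of the UTP-B complex, had 60.7, 54.3 and 52.5 CPM at pH 6.0 and 49.2, 46.2 and 44.5 CPM at pH 7.4 (0.26 ± 0.10, adjusted p = 0.0295). IMP3 and IMP4, which join the U3 particle to the precursor, differed in their call at 6 h, but a test between the genes was not made. IMP4 had 51.1, 52.1 and 51.8 CPM at pH 6.0 and 56.2, 55.9 and 48.3 CPM at pH 7.4 (-0.05 ± 0.09, adjusted p = 0.696).

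Among the 13 measured genes of large subunit assembly, 4 fell and 2 rose. NOP2, which methylates the large ribosomal RNA, had 42.3, 48.0 and 36.3 CPM at pH 6.0, against 75.5, 78.0 and 70.7 CPM at pH 7.4 (-0.82 ± 0.11, adjusted p = 4.34e-06). RRS1, which helps to bring in the 5S particle in yeast, had 5.71, 6.17 and 5.80 CPM at pH 6.0 and 12.5, 14.6 and 11.7 CPM at pH 7.4, the lowest log2 fold change of the 54 genes (-1.13 ± 0.17, adjusted p = 1.19e-05). Each pH 6.0 library was below each pH 7.4 library for both. NIP7, an assembly factor of the precursor particles, had 22.4, 23.8 and 21.7 CPM at pH 6.0 and 32.4, 30.8 and 32.2 CPM at pH 7.4 (-0.49 ± 0.10, adjusted p = 0.00023), and DDX56, a helicase, also fell (-0.36 ± 0.10). PPAN, thinly counted, had -0.55 ± 0.29 and was short of the threshold (adjusted p = 0.122).

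WDR12, which forms the PeBoW complex with PES1 and BOP1, went the other way from NOP2 and RRS1. It had 43.1, 39.9 and 40.9 CPM at pH 6.0, against 32.6, 29.3 and 28.2 CPM at pH 7.4 (0.46 ± 0.09, adjusted p = 0.00028). Its partner PES1 had 90.4, 85.6 and 91.4 CPM at pH 6.0 and 92.0, 88.7 and 85.1 CPM at pH 7.4, which overlap (0.01 ± 0.09, adjusted p = 0.955). DDX18, a helicase of the large subunit pathway, had 132, 112 and 111 CPM at pH 6.0 and 101, 93.1 and 90.8 CPM at pH 7.4 (0.32 ± 0.08, adjusted p = 0.00252). Complexes such as PeBoW, UTP-A and the U3 particle thus each held members past the threshold beside members that were not.

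Of the 26 calls at 6 h, 15 held under every alternative run, and those of UTP18, UTP20, NOP14, RRP12, LTV1 and DDX56 were lost when 1 library was left out. The adjusted p without a library reached 0.109 for UTP18 (without pH 7.4 library 3 at 6 h), and without pH 6.0 library 3 at 6 h 0.0852 for UTP20, 0.126 for NOP14, 0.231 for RRP12 and 0.0645 for DDX56. For LTV1 it reached 0.0619 without the second pH 6.0 library at 6 h. The calls of UTP18, UTP20, NOP14 and RRP12 were also lost without other libraries. The median length was 2118 bases and the median GC content 43.3% for the 11 higher genes, 3038 bases and 51.3% for the 15 lower ones, and 2994.5 bases and 48.6% over all genes tested. With the correction for both, 13 genes were higher and 12 lower, but 5 of the 26 calls were lost. These were POLR1A, UTP18 (0.15, adjusted p = 0.144), RRP12 (-0.19, adjusted p = 0.155), NOP14 (-0.24, adjusted p = 0.0588) and UTP20 (0.02, adjusted p = 0.821).

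After 3 h the pathway leaned towards lower levels at pH 6.0. The 10 lower genes were 18.5% of the 54, against 9.26% of all genes tested, and the 1 higher gene 1.85%, against 9.53% of all genes. In both directions together 20.4% of the 54 and 18.8% of all genes were past the threshold. The median log2 fold change was -0.16, with 40 of the 54 genes below 0, against a median of -0.00 over all genes tested. Without pH 7.4 library 1 at 3 h the median was -0.08, and without any other library it lay between -0.22 and -0.13. The groups did not overlap for 18 of the 54 genes, which was again not counted over all genes.

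**Figure D3:**
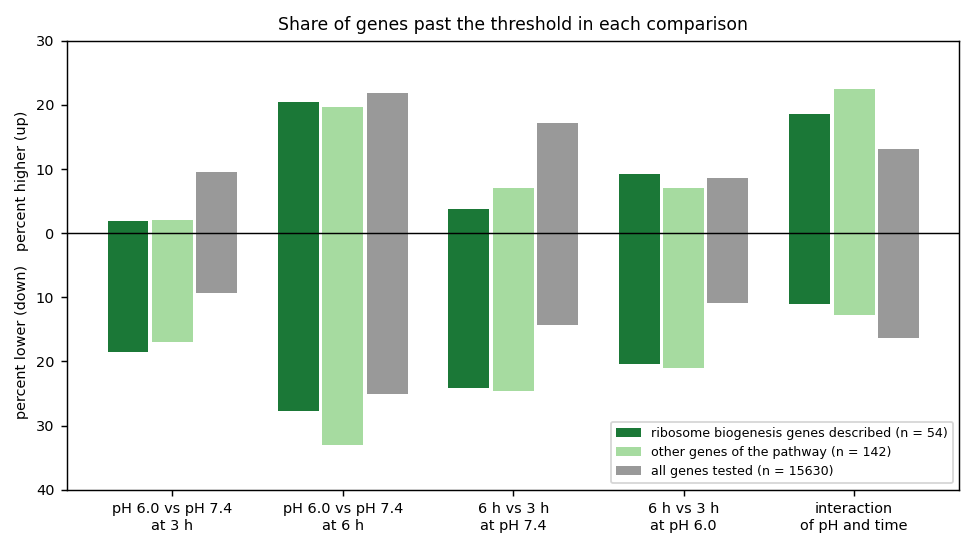
Percent of genes higher and lower by edgeR's test in each comparison, for the 54 genes, for 142 other genes of the pathway and for all 15630 genes tested. At 3 h the lower share of the 54 genes is 18.5% and that of all genes 9.26%, while at 6 h the 3 sets lie closer together.

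Large subunit assembly held 5 of the 10 falls at 3 h. NOP2 had 66.4, 60.5 and 51.1 CPM at pH 6.0, against 97.0, 75.9 and 93.2 CPM at pH 7.4 (-0.58 ± 0.11, adjusted p = 0.000987). RRS1 had 11.2, 7.16 and 8.45 CPM at pH 6.0 and 18.7, 12.9 and 14.9 CPM at pH 7.4 (-0.78 ± 0.16, adjusted p = 0.00163). The pH 6.0 libraries were lower without overlap for both genes, and theirs were the 2 calls at 3 h that held under every alternative. NIP7 (-0.32 ± 0.09), NOP16 (-0.47 ± 0.13) and PES1 (-0.30 ± 0.09) fell as well.

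On the small subunit side IMP4 had 50.4, 41.0 and 41.1 CPM at pH 6.0, against 62.1, 58.3 and 53.8 CPM at pH 7.4 (-0.40 ± 0.09, adjusted p = 0.00578). WDR43 had 121, 148 and 124 CPM at pH 6.0 and 163, 152 and 169 CPM at pH 7.4 (-0.30 ± 0.09, adjusted p = 0.0178). Each pH 6.0 library was below each pH 7.4 library in both cases. HEATR1 was the 1 gene that rose, with 74.0, 80.1 and 70.2 CPM at pH 6.0 and 56.6, 69.8 and 60.4 CPM at pH 7.4 (0.26 ± 0.09, adjusted p = 0.0394). Its length is 8447 bases, and with the correction for length and GC content it was not past the threshold (adjusted p = 0.368).

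Of the snoRNP proteins NOP56 had 131, 118 and 119 CPM at pH 6.0, against 159, 133 and 155 CPM at pH 7.4 (-0.28 ± 0.08, adjusted p = 0.0206). NOP58 had 120.2, 115 and 119 CPM at pH 6.0 and 145, 131 and 140.3 CPM at pH 7.4 (-0.23 ± 0.07, adjusted p = 0.0329). Both were lower in every pH 6.0 library. In the polymerase list POLR1C fell, with 23.6, 17.1 and 20.5 CPM at pH 6.0 and 28.4, 25.1 and 27.4 CPM at pH 7.4 (-0.40 ± 0.11, adjusted p = 0.0174). POLR1A and POLR1B, which were lower at 6 h, overlapped between the groups at 3 h (0.09 ± 0.09 and -0.05 ± 0.08). POLR1E had 19.9, 17.2 and 18.6 CPM at pH 6.0 and 22.2, 17.6 and 24.4 CPM at pH 7.4 (-0.20 ± 0.12, adjusted p = 0.232). No abundant nucleolar protein passed the test at 3 h. GNL3 had 108, 96.0 and 102 CPM at pH 6.0 and 125, 101 and 108 CPM at pH 7.4 (-0.13 ± 0.08, adjusted p = 0.298), and NPM1 759.6, 687 and 695 CPM at pH 6.0 and 808, 668 and 716 CPM at pH 7.4 (-0.03 ± 0.09, adjusted p = 0.837).

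The count of falls at 3 h depended on single libraries. It was 4 without the first or the third pH 7.4 library at 3 h or without the third pH 6.0 library at 3 h, 5 without the second pH 6.0 library at 3 h, and 16 without the second pH 7.4 library at 3 h. Over all genes the falls were 1448 of 15630 with all libraries. They were 882 of 15992, 1095 of 16198 and 832 of 16153 without the libraries that gave 4, in that order. Without those that gave 5 and 16 they were 891 of 16116 and 1484 of 15983. The adjusted p without 1 of these libraries reached 0.119 for POLR1C, 0.0987 for NOP56, 0.126 for NOP58, 0.0927 for NIP7, 0.113 for NOP16, 0.137 for PES1, 0.0949 for WDR43 and 0.204 for HEATR1.

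The calls at the 2 times overlapped in part. POLR1C, WDR43, NOP2, RRS1 and NIP7 were lower at both, which is 5 of the 10 lower genes at 3 h and 5 of the 15 at 6 h. No gene was higher at one time and lower at the other, and 22 of the 54 were past the threshold at neither. This overlap of calls was not counted over all genes, so it has no background here.

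**Figure D4:**
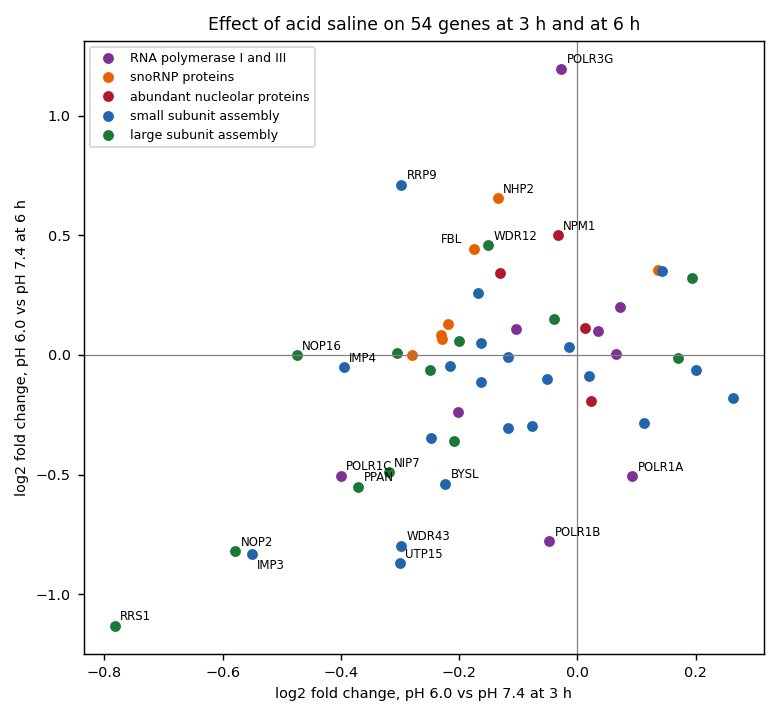
Log2 fold change for pH 6.0 against pH 7.4 of the 54 genes, at 3 h on the horizontal and at 6 h on the vertical axis. RRS1 and NOP2 lie low on both axes, POLR1B is low at 6 h alone (-0.78, against -0.05 at 3 h), and RRP9 and NHP2 lie high at 6 h.

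Whether the pH effect itself differed between the times was tested as the interaction of pH and time, which was past the threshold for 16 of the 54 genes (29.6%), against 29.4% of all genes tested. It was higher at 6 h for 10 genes and lower for 6, where 13.1% and 16.3% of all genes were. POLR1B had the smallest p of the lower ones (-0.73 ± 0.12, adjusted p = 0.000142), with POLR1A (-0.60 ± 0.13), WDR43 (-0.50 ± 0.12), UTP15 (-0.57 ± 0.20), HEATR1 (-0.44 ± 0.12) and UTP20 (-0.39 ± 0.12) beside it. RRP9 (1.01 ± 0.18, adjusted p = 0.000347) and NHP2 (0.79 ± 0.15, adjusted p = 0.000722) led the higher ones, and 4 of the 7 snoRNP proteins were among them (NHP2, FBL, DKC1 and NOP58). For NOP2 and RRS1, lower at both times, the interaction was not past the threshold (-0.24 ± 0.16 and -0.35 ± 0.23). The interaction call of POLR1A, HEATR1 and UTP20 was lost, with a value above 0, under the correction for length and GC content. The same correction ended the interaction calls of NOP58 (adjusted p = 0.0659), UTP15 (adjusted p = 0.0714) and UTP18 (adjusted p = 0.0554). Leaving out 1 library took the adjusted p up to 0.136 for UTP15 and 0.0764 for UTP20 (pH 6.0 library 3 at 6 h), and to 0.089 for DKC1 and 0.0828 for NOP58 (pH 7.4 library 3 at 6 h). Without pH 6.0 library 1 at 3 h, 16 genes were higher. Over all genes it was 2647 of 15964 in that fit, against 2048 of 15630 with all libraries.

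Some of the genes also differed between 6 h and 3 h in each kind of saline. At pH 7.4, 13 of the 54 genes were lower after 6 h than after 3 h (24.1%, against 14.4% of all genes tested) and 2 were higher (3.70%, against 17.2%). In both directions together 27.8% of the 54 and 31.6% of all genes were past the threshold. The pH 7.4 libraries at 3 h enter both this comparison and the one for pH at 3 h. The median was -0.14, against -0.02 over all genes, and was -0.08 without pH 7.4 library 1 at 3 h and -0.21 without library 2 at 3 h. RRP9 had 34.1, 32.4 and 31.2 CPM after 6 h and 62.2, 46.0 and 50.8 CPM after 3 h (-0.70 ± 0.13, adjusted p = 0.000263). UBTF had 94.5, 91.9 and 98.2 CPM after 6 h and 128, 122 and 144 CPM after 3 h (-0.47 ± 0.08, adjusted p = 8.47e-05). Both were lower at 6 h in every library. DDX21 was the gene with the smallest p that rose, with 408, 360.3 and 409 CPM after 6 h and 275, 274 and 269 CPM after 3 h (0.52 ± 0.08, adjusted p = 6.05e-05).

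Of the 7 snoRNP proteins 5 fell with time at pH 7.4, and all 7 had a negative log2 fold change. FBL had 162, 151 and 136 CPM after 6 h and 204, 162 and 203 CPM after 3 h (-0.34 ± 0.09, adjusted p = 0.0065). NHP2 (-0.49 ± 0.11), NOP56 (-0.43 ± 0.08), DKC1 (-0.27 ± 0.08) and NOP58 (-0.23 ± 0.07) fell too. With the correction for length and GC content 3 of these 5 calls were lost, FBL at -0.17 (adjusted p = 0.139), DKC1 at -0.17 (adjusted p = 0.0664) and NOP58 at -0.16 (adjusted p = 0.0516). The 3 calls of UBTF, DDX21 and RRP9 held under every alternative. The count of falls was 7 without pH 7.4 library 1 at 3 h or library 3 at 6 h, the rises were 1 without either of these or without library 3 at 3 h or library 1 at 6 h, and the falls were 20 with library totals in place of TMM factors. Over all genes the falls were 2247 with all libraries and 3179 with library totals. They were 1308 without library 1 at 3 h and 1271 without library 3 at 6 h. The adjusted p without 1 library reached 0.0513 for FBL, 0.107 for DKC1 and 0.0998 for NOP58, and for POLR3G (-0.76 ± 0.27) 0.116.

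At pH 6.0, 11 genes were lower after 6 h than after 3 h (20.4%, against 10.9% of all genes) and 5 higher (9.26%, against 8.64%). Counting either direction, 29.6% of the 54 and 19.5% of all genes were past the threshold. POLR1B had 35.9, 36.3 and 35.2 CPM after 6 h and 64.7, 58.9 and 53.9 CPM after 3 h (-0.73 ± 0.09, adjusted p = 1.65e-06). WDR43 had 99.1, 90.0 and 92.5 CPM after 6 h and 121, 148 and 124 CPM after 3 h (-0.48 ± 0.09, adjusted p = 0.000336). POLR1A had 96.1, 96.8 and 85.4 CPM after 6 h and 123, 143 and 129.5 CPM after 3 h (-0.51 ± 0.09, adjusted p = 0.000532). The groups were apart for each of the 3. UBTF fell with time at pH 6.0 as well (-0.40 ± 0.08), and WDR12 rose (0.38 ± 0.09). With library totals in place of TMM factors the median over all genes was -0.10, and 17 genes were lower and 1 higher. The rises were 1 without pH 6.0 library 3 at 3 h or library 1 at 6 h, 2 without library 2 at 3 h, 3 without library 3 at 6 h and 8 without library 1 at 3 h. Over all genes the rises were 801, 981, 894, 1107 and 1898 in these fits, in that order, against 1351 with all libraries.

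The genes that were lower and those that were higher in acid saline at 6 h were also sorted by their calls for time. Of the 15 lower genes, 9 fell with time at pH 6.0 (POLR1A, POLR1B, POLR1C, WDR43, UTP15, LTV1, NOP2, RRS1 and DDX56) and 1 at pH 7.4 (LTV1). Of the 11 higher genes, 4 rose with time at pH 6.0 (FBL, NPM1, UTP18 and WDR12), and 5 fell with time at pH 7.4 (POLR3G, FBL, NHP2, GNL3 and RRP9). These comparisons share libraries, since the same 6 h libraries enter each of them, so the counts are a description of 1 set of values. Sorting genes by their values at 6 h itself favours such calls for time. The same counts were not made over all genes, so nothing particular to these genes can be read from them. Leaving out 1 pH 6.0 library took the adjusted p of time at pH 6.0 up to 0.168 for POLR1C, 0.151 for RRS1, 0.207 for DDX56, 0.12 for FBL, 0.0806 for NPM1 and 0.128 for UTP18, and each of these calls was lost without at least 3 different libraries. RRP9 had group means of 53.3 ± 5.67 CPM at pH 6.0 and 32.6 ± 1.47 CPM at pH 7.4 after 6 h, and 43.1 ± 8.13 CPM at pH 6.0 and 53.0 ± 8.34 CPM at pH 7.4 after 3 h (SD, n = 3 each).

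Other genes of the pathway, 142 matched from lists written by role, gave 28 rises and 47 falls for pH at 6 h, or 52.8% of them against 47.0% of all genes. At 3 h, 3 rose (2.11%, against 9.53% of all genes) and 24 fell (16.9%, against 9.26%), with a median of -0.16 as among the 54. Of 11 other polymerase I subunits and factors, 2 rose and 5 fell at 6 h. POLR1H, a small subunit of the enzyme, rose (1.19 ± 0.17), as did TAF1D, a subunit of the promoter factor SL1 (0.61 ± 0.08), while the subunit POLR1F fell (-0.74 ± 0.11). Subunits of RNA polymerase I therefore moved both ways, but the calls of POLR1H and POLR1F were not compared under the alternative runs.

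Of 9 other polymerase III subunits, 6 fell and 2 rose at 6 h. The largest subunit POLR3A (-0.62 ± 0.11) and POLR3E (-0.38 ± 0.08) fell, and POLR3GL, the alternative to POLR3G, rose (0.72 ± 0.16). Both of these alternative subunits were thus higher at pH 6.0, and POLR3GL had 10.3, 8.95 and 12.4 CPM at pH 6.0 and 6.34, 7.84 and 4.81 CPM at pH 7.4. Of 9 other snoRNP proteins and assembly factors, 4 rose and 3 fell. The H/ACA core protein NOP10 (0.58 ± 0.14), the C/D core protein SNU13 (0.58 ± 0.10) and the assembly helicase RUVBL1 (0.68 ± 0.11) rose.

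Among other small subunit assembly factors, 14 of 41 fell and 7 rose at 6 h, with UTP23 (-0.98 ± 0.12), UTP25 (-0.93 ± 0.10) and the helicase DHX37 (-0.64 ± 0.08) lower. Among other large subunit factors, 16 of 49 fell and 10 rose, with URB2 (-1.16 ± 0.13), the kinase NOL9 (-1.07 ± 0.14) and GRWD1 (-0.79 ± 0.10) lower. The RNA exosome and RNase MRP proteins, which trim and cut the precursor, gave 3 falls and 3 rises of 23. The exosome nuclease DIS3 (-0.42 ± 0.09) and EXOSC6 (-0.40 ± 0.11) fell, and RPP40 of RNase MRP rose (0.53 ± 0.15).

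MYC moved with pH over the same libraries. It had 22.9, 26.2 and 24.3 CPM at pH 6.0 and 198, 205 and 199 CPM at pH 7.4 after 6 h (-3.03 ± 0.10, adjusted p = 9.71e-16). After 3 h it had 71.9, 50.9 and 58.1 CPM at pH 6.0 and 194, 186 and 201 CPM at pH 7.4 (-1.68 ± 0.10, adjusted p = 4.36e-11). Its groups lay far apart at both times, and its part in the values of the ribosome biogenesis genes was not tested.

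A sequence feature that the choice of genes did not use was more frequent in these promoters than in those of all tested genes. The letters CACGTG, an E-box of the kind MYC binds, which read the same on both strands, were searched in 300 bases from 250 before to 50 after the first listed RefSeq start of each gene (GRCh38.p14, which is not the build of the counts). A window was on hand for 45 of the 55 genes. It held an E-box in 16 of them, or 35.6% (exact 95% binomial interval 21.9 to 51.2), against 9.98% of 10905 promoters of tested genes and 7.43% of all 27305. Within the 50 bases after the start alone, a span chosen after the matches were seen, it was 12 of 45 (26.7%, interval 14.6 to 41.9), against 1.17% of the promoters of tested genes. In the 250 bases before the start the share was 11.1%, against 8.77%.

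**Figure D5:**
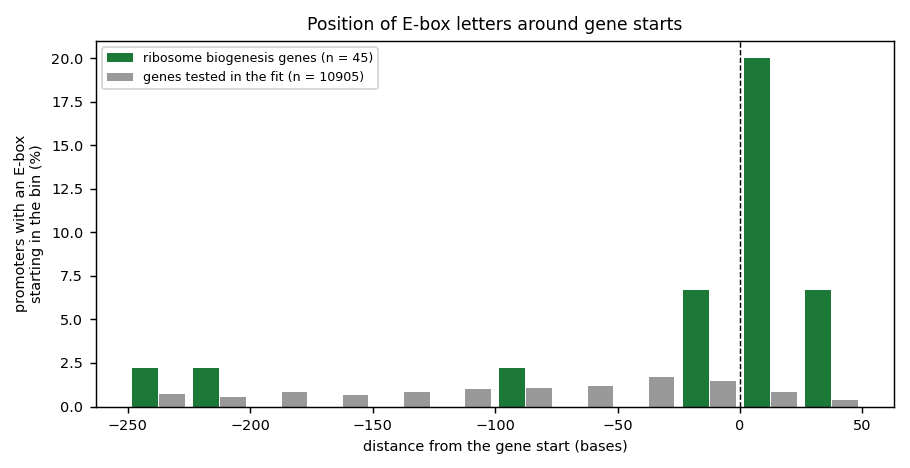
Percent of promoters with an E-box (CACGTG) by distance from the start site, in bins of 25 bases, for the 45 genes with a promoter and for the 10905 promoters of tested genes. The 12 matches after the start stand out above the tested genes, which stay at or under 1.68% in every bin.

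The windows below show where the E-box, in capitals, lies in genes called lower or higher. The calls of NOP14, UTP20 and UTP18 were lost with the correction for length and GC content, and without single libraries. Each runs 5′ to 3′ along the gene's strand for 100 bases and ends 30 bases after the start. WDR43 (chr2:28894597-28894696, plus strand), NOP14 (chr4:2963377-2963476, minus strand) and UTP20 (chr12:101280035-101280134, plus strand) were lower at pH 6.0 after 6 h, and FBL (chr19:39846350-39846449, minus strand), RRP9 (chr3:51941875-51941974, minus strand) and UTP18 (chr17:51260476-51260575, plus strand) were higher.
WDR43: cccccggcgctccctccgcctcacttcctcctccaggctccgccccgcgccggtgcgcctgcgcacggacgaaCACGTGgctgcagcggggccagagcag
NOP14: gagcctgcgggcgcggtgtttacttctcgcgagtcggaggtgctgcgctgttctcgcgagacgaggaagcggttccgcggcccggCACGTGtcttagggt
UTP20: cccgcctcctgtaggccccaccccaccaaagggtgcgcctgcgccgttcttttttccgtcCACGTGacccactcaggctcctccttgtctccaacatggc
FBL: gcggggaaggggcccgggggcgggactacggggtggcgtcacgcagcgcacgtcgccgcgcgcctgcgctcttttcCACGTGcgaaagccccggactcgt
RRP9: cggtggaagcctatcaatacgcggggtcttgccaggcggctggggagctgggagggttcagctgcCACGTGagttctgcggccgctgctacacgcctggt
UTP18: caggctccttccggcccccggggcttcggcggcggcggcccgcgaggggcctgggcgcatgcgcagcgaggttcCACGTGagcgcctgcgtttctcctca

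An E-box in the promoter went with no 1 direction at 6 h. The window held it in 6 of 13 lower genes (BYSL, LTV1, NOP14, NOP2, UTP20 and WDR43), in 3 of 8 higher genes (FBL, RRP9 and UTP18) and in 7 of 24 genes not past the threshold. At 3 h it was in 4 of 8 lower genes. The second motif searched was CGGAAG on either strand, the core letters of ETS factor sites. It was in 23 of the 45 windows (51.1%, interval 35.8 to 66.3), against 32.3% of the promoters of tested genes. By call at 6 h, it was in 6 of the 13 lower, 4 of the 8 higher and 13 of the 24 genes not past the threshold. These are matches of letters, and binding was not measured.

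Human snoRNAs are commonly cut from the introns of host genes, several of which encode nucleolar proteins. In the GENCODE 29 annotation 9 of the 54 have a snoRNA gene inside them on the same strand, 28 such genes in all, 6 of them in GNL3 and 5 in NOP56. Of these 9 hosts, GNL3 rose at 6 h, and WDR43 and POLR1C fell at both times. NOP56 and NOP58 fell at 3 h. Exons of 29 of the 54 genes overlap exons of another gene in that annotation, NHP2 (RMND5B), GNL3 (GLT8D1), POLR3G (MBLAC2), UTP15 and RRS1 among them. Whether the authors counted by strand is not given in the sources used here, so part of the counts of these genes may belong to the neighbour. The neighbours of NHP2, GNL3, POLR3G and UTP15 lie on the other strand. Those of RRS1 and PPAN lie on the same strand, where counting by strand would not separate them. For PPAN they are P2RY11 and PPAN-P2RY11, and how shared reads were assigned is not given in the sources used here. NPM1 has 45 annotated pseudogenes, which together held 3452 counts against 157027 for NPM1, so counts shared with them could be a small part of its value. For RRN3 the annotated pseudogenes held 2896 counts against 18806 for the gene.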

How the data were processed

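RNA of T84 cells was measured in 12 libraries, 4 groups of 3. The table deposited by the authors holds whole-number read counts for 48162 Ensembl identifiers, and further tables deposited by the authors give RPKM values. These equal the CPM divided by 1 length in kilobases per gene (100.0% within a relative tolerance of 1e-06), and served here only to recover those lengths. The processing notes of the submitters name STAR, CASAVA and the build hg19. The gene models, the counting software and its strand setting are not named in the sources used here. Symbols came from a names table and GENCODE 29 of GRCh38, and promoters from RefSeq (GRCh38.p14), so no coordinates of the counts are given.

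Counts were tested with edgeR 4.0.16 in R 4.3.3 (TMM factors, the default low-count filter, robust quasi-likelihood F test, Benjamini-Hochberg adjustment over 15630 genes, threshold 0.05) in 1 fit of 12 libraries with 8 residual degrees of freedom. The SE is the log2 fold change divided by the square root of F. The common biological coefficient of variation was 9.29%. No library copied another, as chi-square over degrees of freedom was 5.40 to 19.5 in the 12 within-group pairs. The fit was tested on simulated data. Values in every library are given for up to 4 genes of each role list with the smallest p for pH at 6 h, up to 2 at 3 h, those called against the majority of their list at 6 h, and the 3 with the smallest p for the interaction and for time at each pH. HEATR1 and PES1 were added after their values were seen. POLR3GL and MYC, outside these rules, are also given by library, and further genes are named with a log2 fold change only. Other pathway genes are the 3 with the smallest p of each list.

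Alternatives were DESeq2 1.42.0, other scaling and filters, a fit of the compared groups alone, the replicate number as a term, a correction for length and GC content, a test against a minimum fold of 1.2 and fits without each library. The use of any listed promoter start was added later. The genes, the role lists, the motifs and the tests were chosen with earlier results of these data known. Intervals cover counting error only.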

Additional observations from a re-analysis of the deposited data

Results flagged for a closer look

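The pH effect differed between 6 h and 3 h, by the interaction term of edgeR's quasi-likelihood test adjusted over all genes, for 16 of the 54 genes, and this difference put them here. Each value below is the interaction, the log2 fold change for pH 6.0 against pH 7.4 at 6 h minus that at 3 h, followed by the effect at 6 h and at 3 h.

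In the polymerase list the interaction was -0.60 for POLR1A (-0.51 at 6 h and 0.09 at 3 h), -0.73 for POLR1B (-0.78 and -0.05) and 1.22 for POLR3G (1.197 and -0.03). POLR3G has 19 to 50 counts in a library. Among snoRNP proteins it was 0.79 for NHP2 (0.66 and -0.14), 0.62 for FBL (0.44 and -0.18), 0.35 for DKC1 (0.13 and -0.22) and 0.31 for NOP58 (0.08 and -0.23). For NPM1 it was 0.53 (0.50 and -0.03) and for GNL3 0.47 (0.34 and -0.13).

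In small subunit assembly the interaction was 1.01 for RRP9 (0.71 at 6 h and -0.30 at 3 h) and 0.43 for UTP18 (0.26 and -0.17). It was below 0 for UTP15 at -0.57 (-0.87 and -0.30), WDR43 at -0.50 (-0.80 and -0.30), HEATR1 at -0.44 (-0.18 and 0.26) and UTP20 at -0.39 (-0.28 and 0.11). In large subunit assembly it was 0.61 for WDR12 (0.46 and -0.15). The calls of NOP58, DKC1, UTP15, UTP18 and UTP20 were lost when 1 library was left out, with adjusted p up to 0.0828, 0.089, 0.136, 0.0684 and 0.0764, NOP58 and DKC1 without the first pH 7.4 library at 3 h and the third at 6 h among others.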

How the results depend on the processing

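Directions and calls of the named genes were compared over up to 10 other settings and 12 fits without 1 library. POLR3G and PPAN did not pass the filter of 5 CPM in 3 libraries. Under every setting that gave a value, 15 of the 26 calls for pH at 6 h held and 2 of the 11 at 3 h (NOP2 and RRS1). For time, 3 of 15 held at pH 7.4 and 4 of 16 at pH 6.0 (POLR1A, POLR1B, WDR43 and UTP15). Of the 16 interaction calls, those of POLR1B, POLR3G, FBL, NHP2, NPM1, RRP9 and WDR12 held.

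Signs turned only with the correction for length and GC content, alone and with the replicate number as a term, the second value given here. They were 0.0218 and 0.0209 for UTP20 at 6 h, -0.0734 and -0.0738 for HEATR1 with time at pH 7.4, and for the interaction 0.0361 and 0.0362 for POLR1A, 0.0214 and 0.0238 for HEATR1, and 0.0998 and 0.101 for UTP20. None of these was past the threshold.

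For pH at 3 h the 1 rise became 0 with total counts, without the low-count filter, with only the groups compared, with the correction (with or without the replicate term) and against a fold change of 1.2, and 2 with a filter of 5 CPM in 3 libraries. The 10 falls became 5 with only the groups compared and 2 against a fold change of 1.2. For pH at 6 h the 11 rises became 6 against a fold change of 1.2.

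For time at pH 7.4 the 2 rises became 1 with total counts, with the correction with or without the replicate term and against a fold change of 1.2, and the 13 falls became 20 with total counts and 2 against a fold change of 1.2. For time at pH 6.0 the 5 rises became 1 with total counts, 9 with the correction, 11 with the correction and the replicate term and 0 against a fold change of 1.2, and the 11 falls became 17 with total counts and 4 against a fold change of 1.2. For the interaction the 10 higher became 6 against a fold change of 1.2, and the 6 lower became 3 with the correction and 2 against a fold change of 1.2. A share of 35.6% of promoters with an E-box became 11.1% with the 250 bases before the start alone and 42.2% with any listed start. The causes of these shifts were not tested.

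Leaving out 1 library gave 0 to 1 rises and 4 to 16 falls for pH at 3 h, 10 to 12 and 11 to 16 at 6 h, 1 to 3 and 7 to 18 for time at pH 7.4, 1 to 8 and 8 to 12 for time at pH 6.0, and 7 to 16 higher and 4 to 6 lower for the interaction, 16 of them without the first pH 6.0 library at 3 h. The counts over all genes moved in these fits as well.

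Libraries with the same replicate number deviated together weakly at most (r between -0.13 and 0.23 over 18 pairs, 2 of them over 0.1, and 8 best with their own number). Between pH 6.0 and pH 7.4 at 3 h all 3 pairs were best with their own number (r = 0.23, 0.09 and 0.05). At 6 h the first 2 were (r = 0.07 and 0.14) and the third was not (r = -0.03). A weak pairing within a time is thus not excluded. With the replicate block the rises and falls were 1 and 13 for pH at 3 h, 11 and 15 at 6 h, 2 and 15 for time at pH 7.4, 7 and 13 for time at pH 6.0, and 13 and 6 for the interaction. Over all genes the correction moved the split for pH at 6 h to 3847 higher and 3525 lower, against 3418 and 3924 without it. The 3 libraries of a group, no stated culture of origin and low counts of POLR3G and PPAN limit what can be told.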
